A study of Mus musculus with 8 samples.

Results

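Interferon beta (IFNβ) priming followed by 1 h of T cell receptor (TCR) stimulation was set against IFNβ alone of the same total duration in mouse CD8+ T cells. The comparison rests on 2 of the 8 single-colour Agilent arrays of the series, 1 for IFNβ 1 h followed by TCR 1 h and 1 for IFNβ 2 h. Per gene it is the log2 signal on the first minus that on the second, in the series' value table, with both arrays on slide 1. All 8 arrays carried total RNA of splenic CD8+ T cells purified from OT-I mice on the C57BL6 background. T cells of OT-I mice carry 1 transgenic TCR specific for SIINFEKL, a peptide of ovalbumin held by H-2Kb, and they were stimulated with streptamers built from H-2Kb and SIINFEKL. The labels name no added costimulus. The other arrays of slide 1 were TCR 1 h and untreated replicate 1, and slide 2 held IFNβ 1 h and then TCR 6 h, IFNβ 7 h, TCR 6 h and untreated replicate 2. The labels do not say whether IFNβ stayed in the culture during TCR stimulation, nor the sex, age or number of mice. If IFNβ was removed, the compared arrays had 1 h and 2 h of it, which cannot be told apart from a TCR effect. Each condition apart from untreated had 1 array, so differences of single genes below have no replicate error and no p-value.

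Which of the 2 arrays with TCR 1 h was primed is disputed within the deposited data. In the value table each of these columns is an exact multiple of the other one's scanner file, and the value table's naming is used throughout. Relative to untreated replicate 1, 69 antiviral genes had a median log2 difference of 3.99 in the column named as primed and of -0.12 in the one named as TCR 1 h. Both arrays had 1 h of TCR stimulation under either naming. Every primed and unprimed difference at TCR 1 h below depends on the naming.

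The 2 arrays with IFNβ alone stood apart from the other 6 in ways that the treatment labels do not name. Xist, the RNA that coats the inactive X chromosome in female cells, had a signal of 1639.6 on the primed and stimulated array and was at the table's floor of 15 after IFNβ 2 h. It was also at 15 after IFNβ 7 h, and between 604 and 1467 on the other 5 arrays. Another Xist probe read 677 on the primed and stimulated array and 15 after IFNβ 2 h. A dimmer one read 198 with priming and TCR 1 h, had no usable spot after IFNβ 2 h and read 74.0 after IFNβ 7 h. The Y-linked genes Ddx3y, Eif2s3y, Kdm5d and Uty were well above background on all 8 arrays. Eif2s3y was at 9094 after IFNβ 1 h with TCR 1 h and 18148 after IFNβ 2 h, at 17937 after IFNβ 7 h, and between 7935 and 11617 on the other 5 arrays. The other Y-linked genes had no such rise after IFNβ 2 h. Ddx3y was at 17340 after IFNβ 1 h with TCR 1 h and 11582 after IFNβ 2 h. In that order Kdm5d was at 2536 and 2663, and Uty at 180 and 162. Another probe of Ddx3y and another of Uty were also lower after IFNβ 2 h. Summed B cell marker signal was 10358 after IFNβ 1 h with TCR 1 h and 41691 after IFNβ 2 h, with 13552 on untreated replicate 1. Both arrays with IFNβ alone thus had Y-linked signal with little or no Xist signal, and the other 6 arrays had both. A difference in the animals or the cell preparation and the effect of TCR stimulation cannot be told apart in the pair compared here. For that reason values against untreated replicate 1, which carried Xist at 1029.5, stand beside the main ones, as an alternative chosen after seeing the data.

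**Figure D1:**
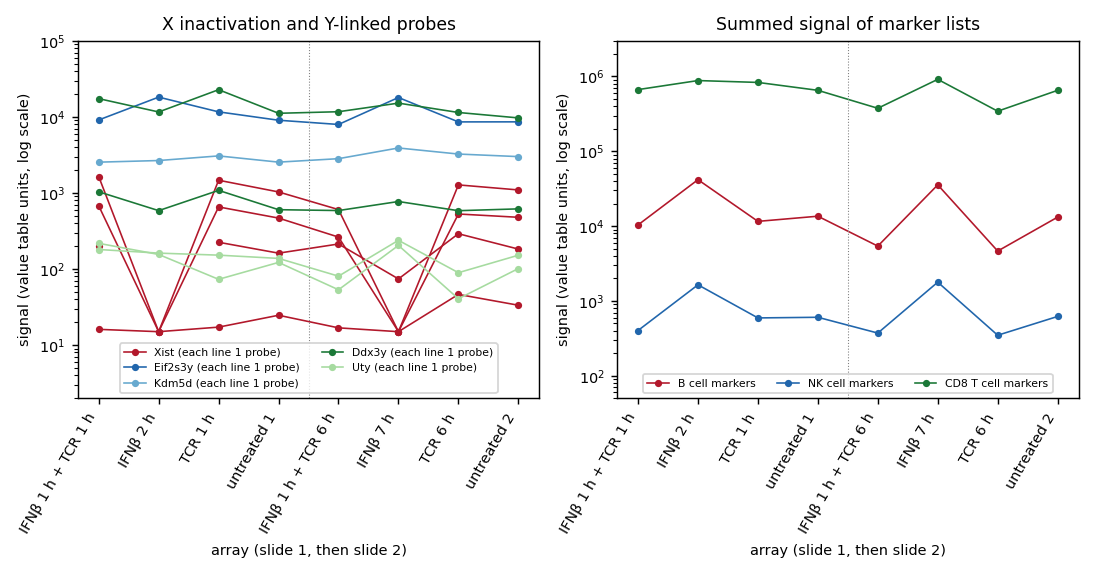
Signal (value table units, log axis) on each array, 4 arrays of slide 1 and then 4 of slide 2. Left, 1 line per probe of Xist and of 4 Y-linked genes, with the brightest Xist probe at 1639.6 on the primed array with TCR 1 h, and at the floor of 15 after IFNβ 2 h and 7 h; right, summed signal of 9 B cell, 8 NK cell and 8 CD8 T cell markers, with the B cell sum at 10358 after IFNβ 1 h with TCR 1 h and 41691 after IFNβ 2 h.

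Antigen binding to the TCR starts a kinase cascade that feeds calcium and NFAT, RAS and MAP kinases, and NF-kB. Their first transcriptional output is a set of immediate early genes that need no new protein, followed by cytokines, surface receptors and growth genes. Type I interferon binds IFNAR1 and IFNAR2 and acts through receptor-bound JAK kinases on antiviral genes. In CD8 T cells it is known as a signal that, beside antigen and costimulus, favours effector functions such as IFNγ and granzyme B, and it can also hold back proliferation when it precedes antigen.

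Ifng, Ccl3, Nr4a2, Egr3 and Tnf had the 5 highest log2 differences among genes with a usable symbol that were well above background on both arrays. The promoters of all but Egr3, which the promoter table used here did not match, are shown because motifs of the pathways above can lie there. Each sequence is the 250 bases before the RefSeq gene start, on the gene's strand, in build GRCm38.p6. Capitals mark matches, on either strand, to 9 motifs: the CArG box of the serum response element, CRE (TGACGTCA), the CRE core (TGACG, which also lies within the full CRE), AP-1 (TGANTCA), EGR (GCGTGGGCG), NF-kB, GAS (TTCNNNGAA), ISRE and the TATA box (TATAAA).
Ifng, chr10:118440796-118441045, plus strand: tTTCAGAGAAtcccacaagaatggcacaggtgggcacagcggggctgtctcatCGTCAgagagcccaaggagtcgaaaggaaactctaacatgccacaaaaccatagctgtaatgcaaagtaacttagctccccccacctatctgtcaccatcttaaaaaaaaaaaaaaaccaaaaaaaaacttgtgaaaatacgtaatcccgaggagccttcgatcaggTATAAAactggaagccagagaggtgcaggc
Ccl3, chr11:83649379-83649628, minus strand: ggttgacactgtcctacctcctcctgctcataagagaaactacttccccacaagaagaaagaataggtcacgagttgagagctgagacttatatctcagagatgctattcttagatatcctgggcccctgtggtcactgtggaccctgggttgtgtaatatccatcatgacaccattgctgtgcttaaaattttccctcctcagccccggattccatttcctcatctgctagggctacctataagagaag
Nr4a2, chr2:57124004-57124253, minus strand: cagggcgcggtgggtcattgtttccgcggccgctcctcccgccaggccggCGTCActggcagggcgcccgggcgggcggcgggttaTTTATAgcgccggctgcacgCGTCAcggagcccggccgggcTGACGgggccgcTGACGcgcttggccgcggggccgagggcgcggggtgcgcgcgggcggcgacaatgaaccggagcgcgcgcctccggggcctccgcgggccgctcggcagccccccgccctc
Tnf, chr17:35202008-35202257, minus strand: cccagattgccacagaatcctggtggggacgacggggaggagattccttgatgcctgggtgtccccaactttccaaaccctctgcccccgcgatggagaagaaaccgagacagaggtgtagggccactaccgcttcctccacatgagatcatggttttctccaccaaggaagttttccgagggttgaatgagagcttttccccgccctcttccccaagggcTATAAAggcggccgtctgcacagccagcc
The TATA box letters began 30 bases before the start in Ifng and 29 before it in Tnf. On either strand 13.0% of 27025 promoters of this length held them, and 8.98% of those of the 12011 measured genes. Nr4a2 held 4 CRE cores and a TATA box match on the other strand. At least 1 CRE core was held by 17.9% of promoters and by 24.9% of those of measured genes. Ifng held 1 CRE core and, at the far end of its window, 1 GAS match (7.18% of promoters, 6.36% of those of measured genes). The Ccl3 window held no match. A match is a description of the letters, and these data do not show which factor was bound.

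Between the arrays 2082 of 19746 genes were at least 2-fold higher after IFNβ 1 h with TCR 1 h than after IFNβ 2 h (10.5%) and 2487 were at least 2-fold lower (12.6%). At least 4-fold, 549 genes were higher (2.78%) and 413 lower (2.09%), and at least 10-fold, 120 were higher (0.608%) and 32 lower (0.162%). The largest differences were therefore more often higher, while 2-fold differences were more often lower. With scaling to spike-in RNA in place of the 75th percentile the median of all genes moved to 0.69 and 90.1% of 2-fold differences were higher, against 45.6%. The untreated arrays, on separate slides, differed at least 2-fold for 200 genes higher (1.02%) and 93 lower (0.473%) in replicate 2. The SD of the log2 difference over genes was 0.972 for the stimulated pair and 0.284 for the untreated pair. The robust SD of the untreated difference was 0.0993, and repeated spots had an SD of 0.131 on replicate 2 and 0.104 on replicate 1. The robust SD is little moved by outlying genes and the spot SD is not robust, so these are unlike measures. The labels name the untreated arrays as replicates 1 and 2 and do not say whether their RNA was separate. They are therefore not counted as independent samples here, and their difference may hold no spread between animals. The 2-fold line is arbitrary: the genes nearest to it lay at 1.00004 and 0.9991. Among the 19712 genes measured on all 3 arrays, the stimulated array had, against untreated replicate 1, 2039 genes at least 2-fold higher (10.3%) and 1247 lower (6.33%). List counts below are to be read beside these shares of all genes, 10.5% higher and 12.6% lower. For the unprimed pair the shares of all genes were 9.18% higher and 7.96% lower. Signals below are in value table units, in which the 75th percentile of each array is about 1500, and are not comparable between genes.

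**Figure D2:**
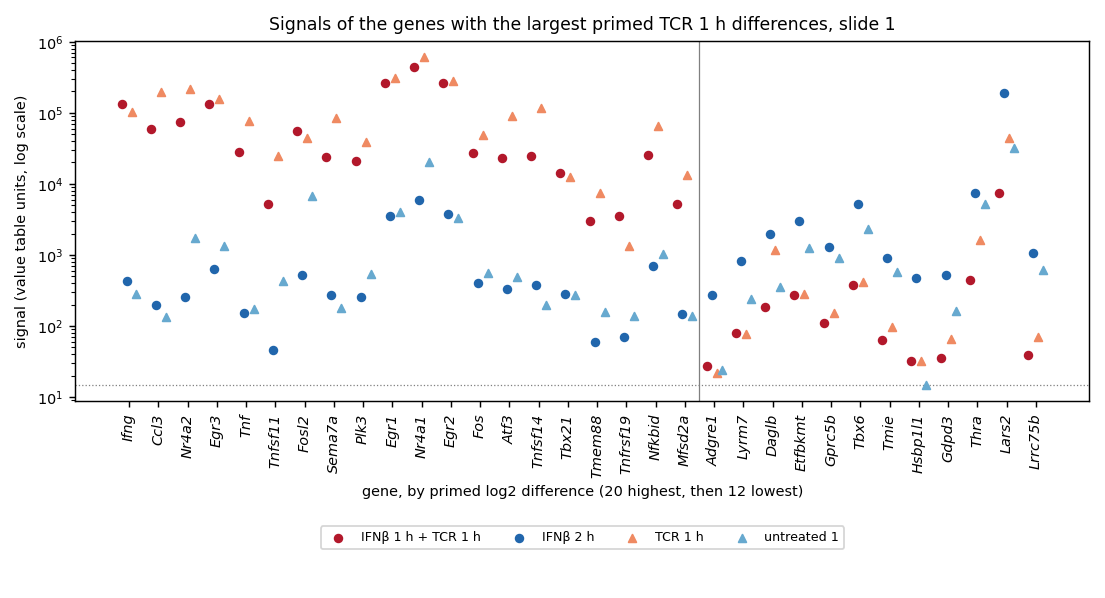
Signal (log axis) of the 20 genes with the highest and the 12 with the lowest log2 difference among genes with a usable symbol and well above background on both arrays, on the 4 arrays of slide 1, with a dotted line at the floor of 15. The 20 genes were at least 35.1-fold higher after IFNβ 1 h with TCR 1 h than after IFNβ 2 h; among the 12 lower genes Lars2 was at 7491 and 190244, and Hsbp1l1 was at the floor in untreated cells.

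All of the 20 highest genes were also at least 2-fold higher in the unprimed pair and against untreated replicate 1, although 7 of them were at least 2-fold lower after IFNβ 2 h than in untreated cells. The comparisons of IFNβ 1 h with TCR 1 h and of IFNβ 2 h with untreated cells each reuse an array that picked the genes. The unprimed pair shares no array with that choice. Cytokine genes were among the 20. Ifng, encoding IFNγ (probe at chromosome 10, 117882841 to 117882900 in mm9), had a signal of 132698 after IFNβ 1 h with TCR 1 h and 430 after IFNβ 2 h, a log2 difference of 8.27. Without priming it was at 101926 after TCR 1 h and 287 in untreated replicate 1. The 2 arrays with TCR were thus within 1.5-fold of each other for Ifng, and both lay far above the arrays without TCR. Ccl3, a chemokine that attracts monocytes and T cells (chromosome 11, 83461358 to 83461417), was at 58762 and 195, with 196930 after TCR 1 h and 135 untreated. Its primed difference was 8.23 and its unprimed difference 10.51. Tnf (chromosome 17, 35336795 to 35336854) was at 27928 and 152, with 77278 and 176 in the unprimed pair. Il2, the T cell growth factor, was at 1133 after IFNβ 1 h with TCR 1 h and not well above background after IFNβ 2 h, so it was at least 39.6-fold higher. Such a bound sets the brighter signal against the lowest signal well above background on the dimmer array, or the gene's own signal where that is higher. Il2 was at 19252 after TCR 1 h and 45.9 untreated, so the unprimed TCR array was much the brighter of the pair with TCR.

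Of 28 measured genes in the list of cytokines and chemokines 13 were at least 2-fold higher and 2 lower, with a median of 0.68, against -0.06 over all genes. Xcl1 lay at 5.04, the epidermal growth factor family ligand gene Areg was at least 15.4-fold higher, Il3 was at least 4.65-fold higher, and Ccl4 lay at 3.41 and Lta at 2.28. In the unprimed pair 15 of these genes were at least 2-fold higher and 1 lower. The interferon-induced chemokine genes Cxcl10 and Cxcl11 had primed differences of 2.00 and 2.29. Csf2, encoding GM-CSF, was at 48.9 and 65.7 in the primed pair and at 796 after TCR 1 h, while untreated cells were not well above background. Ltb and Il16 lay at -1.56 and -1.61.

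Immediate early genes reached a median of 3.92 over 27 measured members, above each of the other 29 lists, with 24 at least 2-fold higher and 0 lower. This list holds transcription factor genes and others such as the kinase gene Plk3. Against untreated replicate 1 the median was 2.76 and 22 of 27 were at least 2-fold higher, and the unprimed pair had 25 higher, 1 lower and a median of 3.53. The NR4A orphan nuclear receptors, which are standard reporters of TCR signalling, were high: Nr4a1 was at 437065 after IFNβ 1 h with TCR 1 h and 6026 after IFNβ 2 h, with 607128 after TCR 1 h and 20089 untreated. Nr4a2 (chromosome 2, 56960699 to 56960758) was at 74560 and 252, with 215045 and 1744 in the unprimed pair. Both genes were lower after IFNβ 2 h than in untreated cells, which enlarges the primed difference: Nr4a2 lay at 8.21 against IFNβ 2 h and at 5.42 against untreated cells. Nr4a3 was at 486 with TCR and at the floor after IFNβ 2 h, with 4725 and 18.9 in the unprimed pair.

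The EGR zinc finger factors, which drive further activation genes and limit them through NAB corepressors, followed the same pattern. Egr1 was at 259834 after IFNβ 1 h with TCR 1 h and 3549 after IFNβ 2 h, with 306270 after TCR 1 h and 4053 untreated. Egr2 was at 266195 and 3762, with 275686 and 3362 in the unprimed pair. Egr3 was at 133659 and 637, a difference of 7.71, while another kept probe of this gene gave 3.71. Egr4 was at least 121-fold higher. For Egr1 and Egr2 the arrays with TCR lay close together, as did the arrays without it. The NAB corepressor genes Nab2 and Nab1 lay at 4.54 and 1.81, the circadian repressor gene Bhlhe40 at 4.90 and Plk3, a stress kinase, at 6.37. Klf6 was the lowest member at -0.76, with an unprimed difference of -1.33, and Pim1 lay at -0.18 and 1.89.

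AP-1 and CREB factors were mostly higher, with 11 of 14 above 0. Of the 14 genes 7 were at least 2-fold higher and 1 lower, with a median of 1.63. Fos was at 27224 after IFNβ 1 h with TCR 1 h and 398 after IFNβ 2 h, with 48727 after TCR 1 h and 551 untreated. Atf3, a stress-induced repressor, was at 23098 and 338, with 88795 and 497 unprimed. Fosl2 (chromosome 5, 32459624 to 32459683) was at 56064 and 527, with 44187 and 6705 unprimed, so its difference of 6.73 was 3.06 against untreated cells, and another of its probes gave 2.14. Fosl1 was at least 25.8-fold higher, Fosb lay at 4.22 and Junb at 2.28. Jun was the lower gene, at -1.20, with 0.68 in the unprimed pair and 1.87 against untreated replicate 1.

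Feedback inhibitors of MAP kinase signalling followed. Of 15 genes 12 were at least 2-fold higher and 0 lower (median 2.39), and against untreated replicate 1 the count was 8 higher and 1 lower. Dusp2, a nuclear phosphatase of ERK, was at 282833 after IFNβ 1 h with TCR 1 h and 13489 after IFNβ 2 h, with 461270 after TCR 1 h and 50622 untreated. Spry1, an inhibitor of RAS signalling, was at 9721 and 326, with 28473 and 157 unprimed. Dusp1 lay at 3.26 in the primed pair and at 0.27 against untreated cells, and Dusp10 at 1.55 and -1.92, so their direction or size rests on the array without TCR. Map3k8 lay at 2.65, Dusp6 at 2.56 and Spred2 at 2.27.

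In the NF-kB and NFAT list 11 of 23 genes were at least 2-fold higher and 1 lower, with a median of 0.85 against 1.66 in the unprimed pair. Nfkbid, a nuclear IkB protein, was at 25615 after IFNβ 1 h with TCR 1 h and 689 after IFNβ 2 h, with 65194 and 1027 unprimed. Rel, the NF-kB subunit most tied to T cell activation, lay at 3.60, Nfkb2 at 2.44, Relb at 2.05 and Nfkbia at 1.49. Tnfaip3, encoding the inhibitor A20, lay at 2.20 with a signal of 48089 and 10498, while untreated cells were at 57104. Nfatc3 lay at -1.03. Among 13 genes for mRNA decay and the BTG/TOB proteins, 6 were at least 2-fold higher and 1 lower. Zfp36, encoding the AU-rich element binding protein tristetraprolin, was at 62813 and 6576, Tob2 lay at 3.15 and Zc3h12a, encoding the RNase Regnase-1, at 3.11.

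**Figure D3:**
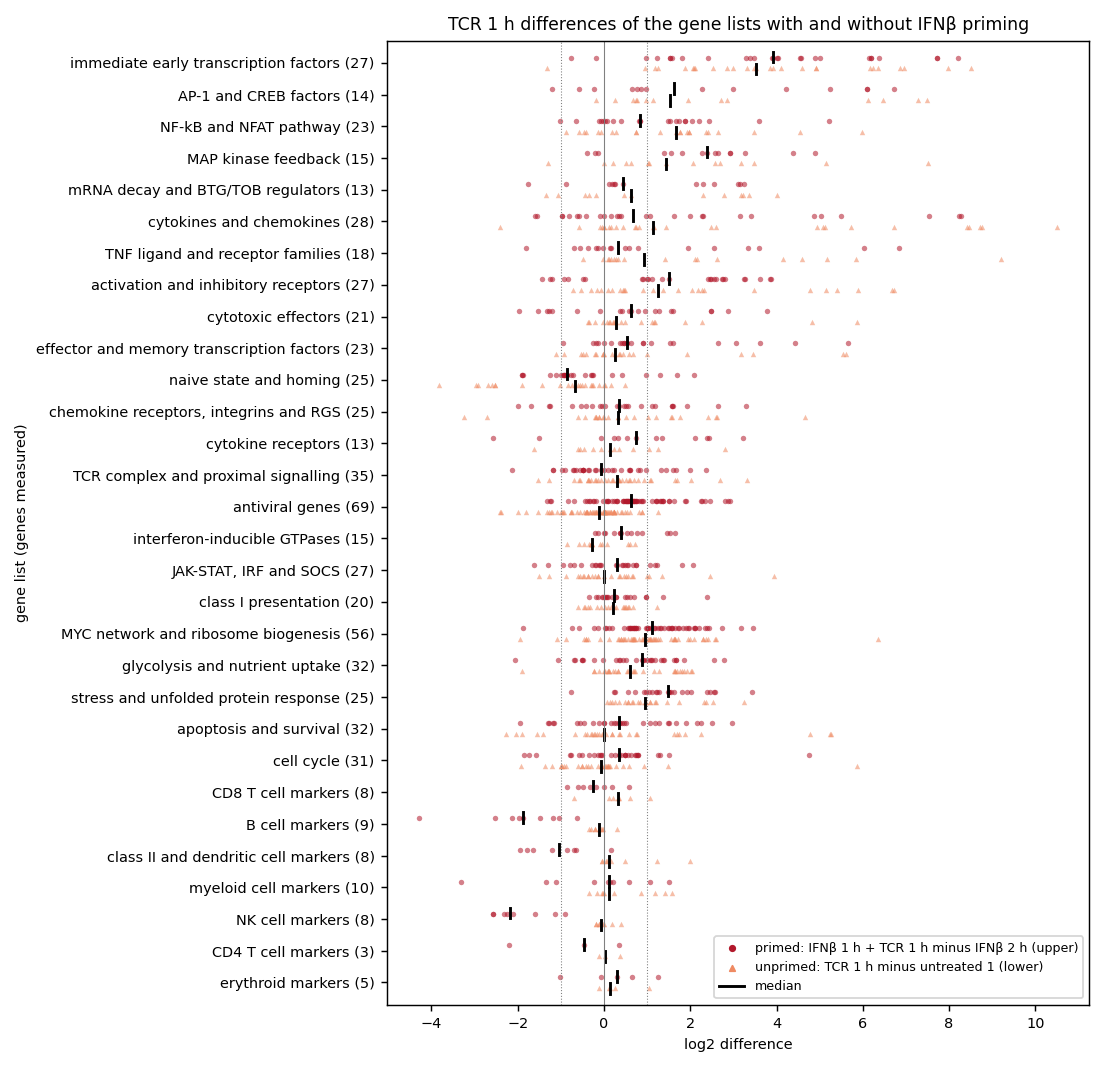
Log2 differences of every measured member of the 30 gene lists, 1 point per gene, with the median as a bar and dotted lines at 2-fold. For each list the upper points are primed (IFNβ 1 h with TCR 1 h minus IFNβ 2 h) and the lower points unprimed (TCR 1 h minus untreated replicate 1); immediate early genes had medians of 3.92 and 3.53, and B cell markers of -1.88 and -0.11.

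Among surface receptors of activation and inhibition 18 of 27 genes were at least 2-fold higher and 3 lower, with a median just below 1.5. Cd69, which retains T cells in lymphoid tissue, was at 310040 after IFNβ 1 h with TCR 1 h and 53225 after IFNβ 2 h, with 360623 after TCR 1 h and 13062 untreated. The 4 arrays thus stood in the order TCR 1 h, IFNβ 1 h with TCR 1 h, IFNβ 2 h and untreated, and the primed difference of 2.54 was below the unprimed one of 4.79. Cd274, encoding PD-L1, was at 57374 and 26680, with 37068 after TCR 1 h and 1040 untreated. Its primed difference was 1.10 and its unprimed one 5.15. Il2ra, the high affinity subunit of the IL-2 receptor, was at 2565 and 386, with 910 and 182 unprimed. Slamf7, Cd160, Pdcd1lg2 and Slamf1 had primed differences of 3.87, 3.84, 3.61 and 3.24, and unprimed ones of 6.68, 6.71, 5.41 and 5.90. Cd244a, an adhesion and signalling receptor of the SLAM family, showed the other order, with 3.28 primed and 0.48 unprimed. Cd86 (2.60 and 0.38), Cd28 (2.41 and 0.47) and Icos (2.81 and 1.37) had the same order, while Cd226, Cd48 and Cd38 were lower in the primed pair at -1.21, -1.26 and -1.44.

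Of 18 genes of the TNF ligand and receptor families 6 were at least 2-fold higher and 1 lower. Tnfsf11, encoding RANKL (chromosome 14, 78678180 to 78678239), was at 5290 after IFNβ 1 h with TCR 1 h and 46.4 after IFNβ 2 h, with 24912 after TCR 1 h and 437 untreated, so it lay at 6.83 and, against untreated cells, at 3.60. Tnfsf14, encoding LIGHT, was at 24309 and 375, with 116476 and 198 unprimed. Tnfsf4, encoding OX40 ligand, was at 508 and 42.0, with 60.1 and 56.1 unprimed. By the value table's naming it was thus high on slide 1 only where IFNβ came before TCR. By the scanner files' naming it would be high only after TCR 1 h alone. Tnfrsf1b, encoding a TNF receptor, lay at 3.33, although another of its probes gave 0.44. Tnfrsf19, outside the list, lay at 5.62 with another probe at 1.24.

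Genes of cytotoxicity were divided. Of 21 genes 8 were at least 2-fold higher (38.1%, against 10.5% of all genes) and 5 lower (23.8%, against 12.6%). Gzmb, encoding granzyme B, was at 12498 after IFNβ 1 h with TCR 1 h and 1690 after IFNβ 2 h, with 4077 after TCR 1 h and 1811 untreated. The primed difference was 2.89, the unprimed one 1.17, and that against untreated cells 2.79. Gzmc lay at 3.78, Crtam at 2.49 and Prf1, encoding perforin, at 1.61, with -0.12 for Prf1 against untreated cells. The 5 lower genes were Gzmk at -1.98, Klrg1 at -1.52, Klrk1 at -1.33, Unc13d at -1.27 and Klrd1 at -1.21, 3 of which encode receptors that NK cells also carry. All 5 lay between -0.94 and -0.22 against untreated replicate 1.

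Transcription factors of effector and memory fate had 8 of 23 genes at least 2-fold higher and 0 lower. Tbx21, encoding T-bet, was at 14361 after IFNβ 1 h with TCR 1 h and 284 after IFNβ 2 h, with 12608 after TCR 1 h and 273 untreated. Irf4, which scales with TCR signal strength, was at 93438 and 4364, with 66141 and 1355 unprimed. Id3 lay at 3.61, Bcl6 at 3.05 and Irf8 at 2.65. Eomes differed by -0.13 in the primed pair and by 2.39 against untreated cells, and Prdm1, encoding Blimp-1, by -0.25. Of 13 cytokine receptor genes 6 were at least 2-fold higher (46.2%) and 2 lower (15.4%, against 12.6% of all genes). Il12rb2, the signalling subunit of the IL-12 receptor, was at 933 and 99.3, with 279 and 254 unprimed. Il18rap, a subunit of the IL-18 receptor, was at 1081 and 199, with 296 and 308 unprimed, and Il21r lay at 2.40. Il10ra, encoding the IL-10 receptor, was lower, at 1962 and 11738, a difference of -2.58, with 1034 and 3208 unprimed. Chemokine receptors, integrins and RGS genes had 8 of 25 higher (32.0%) and 4 lower (16.0%). They were led by Rgs16 at 3.30 and Ccr4 at 2.64, with Itga4 at -1.70. The TCR complex and proximal signalling had 6 of 35 higher (17.1%) and 3 lower (8.57%), with a median of -0.07. Over all genes the shares were 10.5% and 12.6%.

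Growth genes were higher against IFNβ 2 h and less so against untreated cells. In the list of the MYC network and ribosome biogenesis 31 of 56 genes were at least 2-fold higher and 1 lower (median 1.11). With untreated replicate 1 in place of IFNβ 2 h the count was 13 higher and 4 lower (median 0.53), and in the unprimed pair 27 higher and 2 lower. Myc was at 113928 after IFNβ 1 h with TCR 1 h and 10317 after IFNβ 2 h, with 180853 after TCR 1 h and 2227 untreated. Tsr1 and Nolc1, which build ribosomal subunits, lay at 2.73 and 2.44. Mxd1, an antagonist of MYC at its binding sites, was at 35788 and 3942, with 4320 and 3994 unprimed. On slide 1 it was thus high only where IFNβ came before TCR by the value table's naming, and only after TCR 1 h alone by the scanner files' naming. In glycolysis and nutrient uptake 14 of 32 genes were at least 2-fold higher and 2 lower, led by the amino acid transporter genes Slc7a5 at 2.78 and Slc7a1 at 2.54.

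Stress genes had 18 of 25 members at least 2-fold higher and 0 lower, with 10 higher in the unprimed pair. Against untreated replicate 1, 4 of the 25 were at least 2-fold higher, and the median was 0.44. The list's median lay at -0.80 after IFNβ 2 h relative to untreated cells. Ppp1r15a, which reverses the translational stress block, was at 12469 after IFNβ 1 h with TCR 1 h and 1157 after IFNβ 2 h, with 18180 and 3554 unprimed. Hspa1a, encoding a heat shock protein, was at 1715 and 314, with 3461 and 1996 unprimed. Apoptosis genes had 11 of 32 higher (34.4%) and 5 lower (15.6%, against 12.6% of all genes). Among them Gadd45b lay at 2.96, Bcl2a1b at 2.50 and the BH3-only gene Pmaip1 at 2.25. Bcl2 lay at 2.17, with another probe at -0.26. Cell cycle genes had 4 of 31 higher and 3 lower, shares near those of all genes (10.5% and 12.6%). Cdkn1a, encoding the inhibitor p21, was at 4847 and 181, with 13315 and 227 unprimed, while Ccne1 lay at -1.75 and Cdkn2c at -1.58.

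Antiviral genes, already high with IFNβ alone, were mostly a little higher with 1 h of TCR stimulation added. Of 69 measured genes 21 were at least 2-fold higher and 3 lower, 56 lay above 0, and the median was 0.62. In the unprimed pair 1 gene was at least 2-fold higher and 10 lower, with a median of -0.12. After IFNβ 2 h the median lay 3.12 above untreated replicate 1, a comparison that shares the IFNβ 2 h array with the primed one. Mx1, a GTPase against influenza, was at 39205 after IFNβ 1 h with TCR 1 h and 23211 after IFNβ 2 h, with 167 after TCR 1 h and 96.0 untreated. Ifit1 was at 150958 and 123371, Isg15 at 204734 and 150754 and Irf7 at 28641 and 20974. These genes stood within 2-fold of each other on the slide 1 arrays with IFNβ, and the slide 1 arrays without it were far lower. The larger primed differences were 2.91 for Herc6, 2.87 for Oasl2 and 2.45 for Parp12, and Slfn4 was at least 4.95-fold higher. Sp100, Oas1b and Ifi205 were lower at -1.33, -1.25 and -1.22. The naming of the disputed pair bears on every value of this paragraph: with the scanner files' naming the antiviral median would be -3.57.

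Interferon-inducible GTPases had 3 of 15 genes at least 2-fold higher and 0 lower, with Gbp6 at 47337 after IFNβ 1 h with TCR 1 h and 15046 after IFNβ 2 h. In the JAK-STAT, IRF and SOCS list 5 of 27 genes were higher (18.5%, against 10.5% of all genes) and 2 lower (7.41%, against 12.6%). Socs1, which blocks JAK kinases, was at 28931 and 46944, with 27784 after TCR 1 h and 5077 untreated, so it was high on every array of slide 1 except untreated. Socs3 was at 15427 and 47634, with 6377 and 11727 unprimed, a difference of -1.63 and of 0.40 against untreated cells. Cish, induced by STAT5, lay at 2.06 and Stat5a at 1.81, and the kinase gene Tyk2 at -1.30. The receptor genes Ifnar1 and Ifnar2 differed by 0.30 and -0.54. Class I presentation genes had 2 of 20 higher, Nlrc5, their transactivator, at 2.38 and Erap1 at 1.37, a share near the 10.5% of all genes. With the scanner files' naming of the disputed pair the GTPase median would be -3.61, Gbp6 would lie at -4.49 and Nlrc5 at -0.052.

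**Figure D4:**
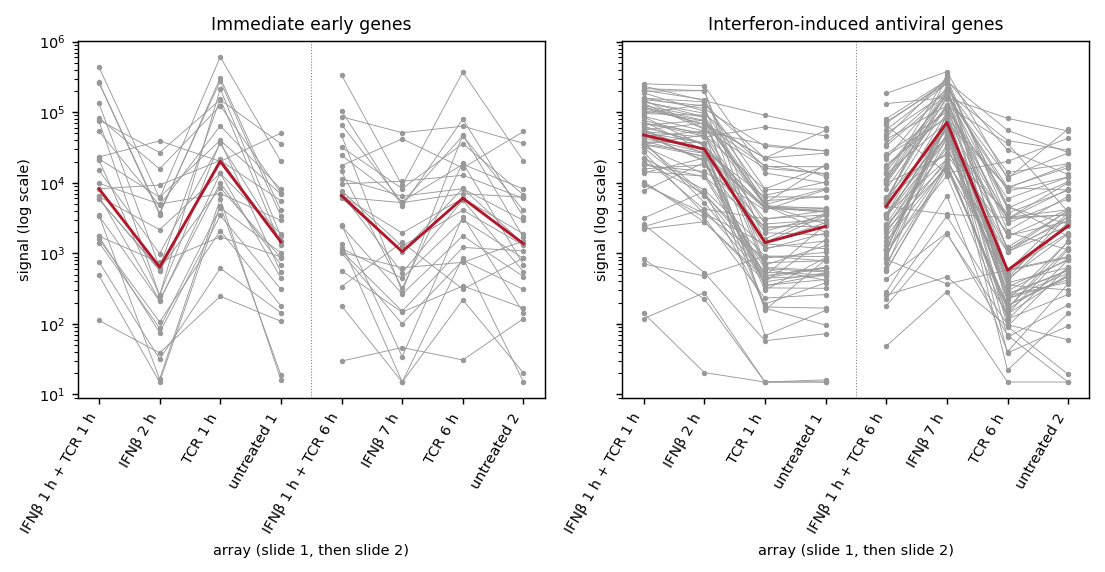
Signal (log axis) of 27 immediate early genes (left) and 69 antiviral genes (right) on the 8 arrays, 4 of slide 1 and then 4 of slide 2, with 1 grey line per gene and the list's median in red. Immediate early genes were higher on arrays with TCR (median log2 difference of 3.92 for IFNβ 1 h with TCR 1 h against IFNβ 2 h), and antiviral genes on arrays with IFNβ, where IFNβ 1 h with TCR 6 h lay below IFNβ 7 h (median -3.56).

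Genes of the naive state and of homing were mostly lower. Of 25 measured, 3 were at least 2-fold higher and 6 lower, with a median of -0.85, against 0 higher and 10 lower in the unprimed pair (median -0.68). Txnip, which restrains glucose uptake, was at 10278 after IFNβ 1 h with TCR 1 h and 37952 after IFNβ 2 h, with 2982 after TCR 1 h and 42003 untreated. Its primed difference was -1.88 and its unprimed one -3.82, while another kept probe of Txnip gave a primed difference of -3.64. Ccr7, the receptor for lymph node entry, was at 11036 and 24054, with 6545 and 49800 unprimed. S1pr1, the receptor for lymph node exit, was at 20380 and 27525, with 6715 and 52876 unprimed. By the probes used, the unprimed TCR array was the lowest and the untreated array the highest of slide 1 for these 3 genes. Sesn1 and Pik3ip1, a stress sensor and an inhibitor of PI3 kinase, lay at -1.90 and -1.89, with -2.69 and -1.90 unprimed. Il7r differed by -0.73 and -1.45. The 3 higher genes were Il6st at 2.09, Cxcr4 at 1.70 and Igfbp4 at 1.30. Scaling the arrays to added spike-in RNA adds 1 constant to every gene, which put the naive median at -0.10 and the median of all genes at 0.69.

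The lowest gene with a usable symbol, among those well above background on both arrays, was Lrrc75b, a leucine-rich repeat protein gene, at 38.7 after IFNβ 1 h with TCR 1 h and 1076 after IFNβ 2 h, with 69.8 and 617 unprimed. Thra, encoding a thyroid hormone receptor, was at 448 and 7342, with 1629 and 5192 unprimed. Lars2, encoding the mitochondrial leucyl-tRNA synthetase, was at 7491 and 190244, with 43676 after TCR 1 h, 32098 untreated and 53102 after IFNβ 7 h. The IFNβ 2 h array was thus the highest of these 5 for Lars2. Tmie, Tbx6, Gprc5b and Gdpd3 lay between -3.86 and -3.54, and each was also at least 2-fold lower in the unprimed pair. Of the 12 lowest genes 8 were at least 2-fold lower in the unprimed pair as well, and 9 against untreated replicate 1, while 8 were at least 2-fold higher after IFNβ 2 h than in untreated cells. The counts for IFNβ 1 h with TCR 1 h and for IFNβ 2 h against untreated cells each reuse an array that picked the genes. Hsbp1l1, at 32.6 and 474, was at 32.6 after TCR 1 h and at the floor in untreated cells.

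B cell and NK cell markers were lower on the array with TCR than after IFNβ 2 h. Of 9 B cell markers 8 were at least 2-fold lower and 0 higher (median -1.88), of 8 NK cell markers 7 were lower (median -2.18), and of 8 class II and dendritic cell markers 4 were lower (median -1.04). Cd79a was at 242 after IFNβ 1 h with TCR 1 h and 1385 after IFNβ 2 h, with 282 and 326 unprimed. Klra1, an NK cell receptor, was at 36.8 and 183, with 62.4 and 67.4 unprimed. Fcer2a, a B cell marker, was at least 11.0-fold lower. Relative to untreated replicate 1, 0 of the 9 B cell and 0 of the 8 NK cell markers were at least 2-fold higher or lower. In bulk RNA fewer cells of a type and less RNA per cell cannot be told apart. The 8 CD8 T cell markers were well above background on both arrays and within 2-fold, with Cd8b1 at 205258 and 312030. Cd4, a CD4 T cell marker, was at 91.8 and 127. Myeloid markers had 2 of 10 higher and 3 lower, with a median of 0.12 and 6 of 10 above 0. Their lowest member was Adgre1, a macrophage marker, at 27.9 and 278. Its first signal was near the lowest well above background on that array (26.6). Their highest member was Mpo, at 4872 and 1703. CD4 T cell markers had 0 of 3 higher and 1 lower, and erythroid markers 1 of 5 higher and 1 lower. The part of other cell types in the lower genes named above was not tested.

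Over 19686 genes the primed and unprimed differences had a Pearson correlation of 0.56, as a description across genes of 4 arrays on 1 slide that share no array. At least 2-fold higher in both pairs were 874 genes, 42.0% of the 2082 primed and 48.3% of the 1808 unprimed (9.18% of genes). At least 2-fold lower in both were 689, 27.7% of the 2487 primed and 44.0% of the 1567 unprimed (7.96%). Opposite calls were made for 30 genes that were higher primed and lower unprimed and 45 of the reverse kind.

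The widest gaps between the pairs were of several kinds. Ddx60, an antiviral helicase gene, was at 6306 after IFNβ 1 h with TCR 1 h and 439 after IFNβ 2 h, with 225 and 266 unprimed, while IFNβ 7 h gave 14802. Another kept probe of Ddx60 gave a primed difference of 2.47 in place of 3.84. Mpzl2, a cell adhesion gene, was at 2701 and 111, with 238 and 135 unprimed and 483 after IFNβ 7 h, so it was high on 1 of these 5 arrays. Another kept probe of Mpzl2 gave a smaller difference, near 1.5, in place of 4.61. Gatm, which makes the precursor of creatine, was at 604 and 49.4, with 534 and 533 unprimed, and IFNβ 7 h gave 52.9. Grb10 was at 630 and 76.5, with 438 and 564 unprimed, and another of its probes gave 1.71 in place of 3.04. Gatm was low on both arrays with IFNβ alone, and for both genes untreated cells lay close to IFNβ 1 h with TCR 1 h. In the other direction Gadd45g, a stress gene that activates p38 and JNK, was at 22256 and 54914, with 38411 and 1012 unprimed, so every array of slide 1 except untreated was high. Cbr3, a carbonyl reductase gene, was at 418 and 151, with 3246 and 62.1 unprimed.

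**Figure D5:**
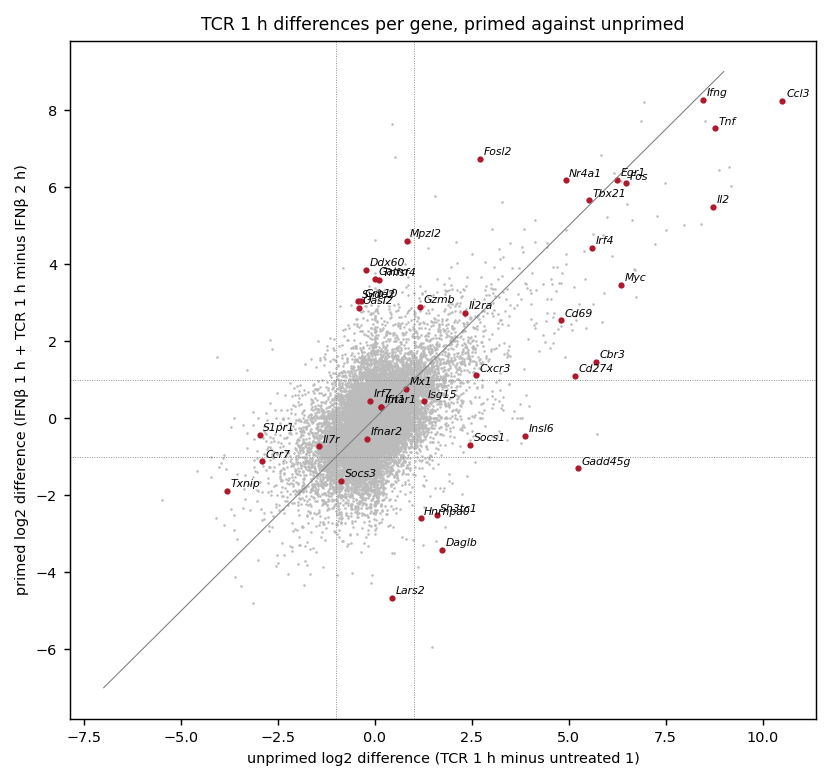
Primed log2 difference (vertical, IFNβ 1 h with TCR 1 h minus IFNβ 2 h) against the unprimed one (horizontal, TCR 1 h minus untreated replicate 1) for 19686 genes, with the line of equal values, dotted lines at 2-fold and selected genes in red. Ifng lay near the line at 8.27 and 8.47, Cd274 below it at 1.10 and 5.15 and Tnfsf4 above it at 3.60 and 0.10.

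The pair at the later time, IFNβ 1 h with TCR 6 h against IFNβ 7 h on slide 2, shares no array with the pair at 1 h. Its array without TCR stood apart in the same way as IFNβ 2 h, however. The brightest Xist probe was at 15 on both, and summed B cell marker signal was 35557 after IFNβ 7 h and 41691 after IFNβ 2 h. A difference in the animals or the cell preparation and the effect of TCR stimulation cannot be told apart in this pair either. The labels also do not say whether IFNβ lasted 1 h or 7 h on the array with TCR. The length of IFNβ exposure thus cannot be told apart from TCR stimulation in this pair. There 3977 of 19693 genes were at least 2-fold higher (20.2%) and 5012 lower (25.5%). Of 548 genes that were at least 4-fold higher at 1 h, 308 were at least 2-fold higher at 6 h, 164 lay between and 76 were lower. Of 412 genes at least 4-fold lower at 1 h with a value at 6 h, 334 were lower at 6 h, 71 lay between and 7 were higher. Il2 was at 57190 after IFNβ 1 h with TCR 6 h and 54.8 after IFNβ 7 h, against 1133 and 25.1 for the pair at 1 h. Ifng lay at 8.88 at 6 h. Egr3 lay at 2.61 at 6 h, Fos at 3.77 and Zfp36 at 0.12. The antiviral median was 0.62 at 1 h and -3.56 at 6 h, with 64 of 69 genes at least 2-fold lower at 6 h. Mx1 was at 616 after IFNβ 1 h with TCR 6 h and 73415 after IFNβ 7 h. The MYC and ribosome list went the other way, with medians of 1.11 at 1 h and 3.45 at 6 h.

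The test was made over the 4 arrays of slide 1, with TCR 1 h and IFNβ as additive terms in limma and 1 residual degree of freedom. It addresses the mean TCR difference over primed and unprimed cells. With 1 array per condition, its residual is the gap between the primed and unprimed differences. Its p-values are therefore not set against a spread between replicates. At an adjusted p under 0.05 (Benjamini-Hochberg) 0 of 19686 genes passed in either direction (0% higher and 0% lower), and 3465 had an unadjusted p under 0.05. For Ifng the term was 8.37 ± 0.28 (SE, 2 arrays against 2, higher in 2 of 2 pairs, limma adjusted p = 0.0705), and for Egr1 it was 6.22 ± 0.27 (limma adjusted p = 0.0705). In simulated data of this size the fit recovered 23 of 50 changes of a log2 of 4, and 0 of 50 changes of a log2 of 2. With TCR 6 h as a further term and the untreated arrays averaged, limma over all arrays called 663 of 19555 genes higher (3.39%) and 503 lower (2.57%). There the TCR 1 h term was 8.54 ± 0.30 for Ifng (SE, limma adjusted p = 0.000406) and 6.09 ± 0.29 for Egr1 (SE, limma adjusted p = 0.000861). Leaving out each array in turn, that fit called 66 to 1163 genes, fewest without the TCR 1 h array. Restricted to genes well above background on all 4 arrays of slide 1, limma called 775 of 16213 genes higher (4.78%) and 695 lower (4.29%). In that restricted fit 20 of the 20 highest genes and 8 of 10 fitted among the 12 lowest were called, as were 20 of 24 immediate early genes (higher) and 0 of 66 antiviral genes. MAP kinase feedback had 9 of 14 called higher, cytokines and chemokines 8 of 18 higher and 1 lower, activation receptors 13 of 25 higher, and the naive state 0 higher and 6 of 24 lower. The B cell and NK cell lists had 0 calls among 8 and 6 genes fitted. The 20 highest and 12 lowest genes were picked by the primed difference, which itself enters the TCR term. The lists were chosen with earlier results of these data known. Their counts are thus a description and no separate support.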

How the data were processed

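Total RNA of each condition was hybridised to 1 single-colour Agilent array. The scanner files hold spot intensities that Agilent Feature Extraction background-subtracted and detrended, per the file headers (version 10.7.3.1, build mm9), while the submitters' processing notes name version 9.5.3.1. In the deposited value table each column is the processed intensity times 1 factor, with a 75th percentile near 1500 and values under 15 set to 15. This was found by setting every column against every scanner file, and the authors' wording for this step is not given in the sources used here. Column medians lay between 73.8 and 102.4. Centring was not applied, and the factor's rule is inferred.

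Here control and outlier spots were dropped, deposited intensities were taken to log2, and spots of a probe were averaged. Probes well above background on at least 2 of 8 arrays were kept (28573), and the brightest probe stood for a gene, giving 19746 genes on both arrays and 69 with a missing value. Symbols came from RefSeq by accession for 26690 of 41174 probes and from the files for 14484. A gene was counted at a 2-fold difference. Lists held 687 genes, of which 661 were measured. Members and lists were chosen with earlier results of these data known. Genes named are the 20 highest and 12 lowest, up to 8 bounds each way, 4 per list, the widest gaps between the primed and unprimed pairs, and 27 standard genes of activation and interferon response, not all of which are reported here; other list members are named as examples, after their values were seen. Promoters were matched by symbol for 12011 measured genes. The additive fit used limma 3.58.1 in R 4.3.3 and was tested on simulated data with known changes, where 4 of 19486 unchanged genes were called. Repeated spots had an SD of 0.0874 to 0.135 log2 per array. The number of arrays limits the precision. The p-values are set against departures of these arrays from the additive terms, not against a spread between replicates. Alternatives covered array naming, scaling, background correction, the filter, the probe chosen and the array without TCR.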

Additional observations from a re-analysis of the deposited data

Results flagged for a closer look

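In 6 named genes the primed and the unprimed pair differed at least 2-fold in opposite directions, by value table signal. The primed pair is IFNβ 1 h with TCR 1 h minus IFNβ 2 h, and the unprimed pair TCR 1 h minus untreated replicate 1. Further named genes had opposite signs with a smaller difference in 1 pair or both, such as Lars2 at -4.67 and 0.44. With 1 array per condition the difference between the pairs was not tested. The log2 differences of the 6, primed and then unprimed, were -3.86 and 1.12 for Hsbp1l1, -3.42 and 1.73 for Daglb, and -3.19 and 1.58 for Zfp462. They were -2.60 and 1.18 for Hnrnpa0, -2.53 and 1.59 for Sh3tc1, and -1.30 and 5.25 for Gadd45g. Another probe of Daglb gave -0.58 in the primed pair. Hsbp1l1 had the same signal, 32.6, on both arrays with TCR 1 h and was at the floor, not well above background, in untreated cells. Zfp462 was not well above background after IFNβ 1 h with TCR 1 h or in untreated cells, so it was at least 7.76-fold lower in the primed pair. The unprimed values of these 2 genes, measured on 1 side only, give no measured size. Among all genes 45 were at least 2-fold lower in the primed pair and higher in the unprimed pair.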

How the results depend on the processing

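The count of genes at least 2-fold different was 4569 (2082 higher, 2487 lower). It was 7026 with spike-in scaling (6333 higher, 693 lower), 2883 with normexp background correction (1388 higher, 1495 lower), 2569 with normexp and quantile normalization (1215 higher, 1354 lower), and 962 at 4-fold (549 higher, 413 lower). Against untreated replicate 1, chosen after seeing the data, it was 3291 (2043 higher, 1248 lower), with 62.1% higher, over all genes with a value on both arrays (2039 and 1247 over the 19712 also measured after IFNβ 2 h). It stayed within 1.5 times of 4569 under the scanner files' naming (6157), the array median (4535, 51.6% higher), quantile normalization (4601), genes detected on both arrays (3804), no filter (4835), the mean of probes (4484) and IFNβ 7 h in place of IFNβ 2 h (4330).

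Of 174 named genes these changed direction. Against untreated replicate 1 the log2 differences became 1.12 for Hsbp1l1, 0.20 for Adgre1, 0.022 for Zfp462, 0.54 for Bcar1, -0.25 for Tnfaip3, 0.40 for Socs3, -0.22 for Hspa1a, 0.14 for Ms4a1, -0.56 for Mpo, 2.05 for Fcgr1, -0.49 for Klf1, 0.40 for Hba-a1 and 4.46 for Gadd45g. Against IFNβ 7 h they became 1.12 for Hsbp1l1, 0.36 for Bcar1, -0.85 for Oasl2, -1.01 for Slfn4, -0.79 for Iigp1, -0.79 for Nlrc5, 0.36 for Lyz2, -0.41 for Klf1 and -1.23 for Ddx60. With the scanner files' naming they became -0.28 for Cd244a, -2.08 for Herc6, -3.45 for Oasl2, -0.44 for Slfn4, -3.22 for Parp12, -4.49 for Gbp6, -6.09 for Iigp1, -3.61 for Gbp2, -0.052 for Nlrc5, -0.96 for Ddx60, 0.25 for Sh3tc1 and 0.22 for Hnrnpa0. Untreated replicate 1 was not well above background for Hsbp1l1, Adgre1, Zfp462, Bcar1 and Fcgr1, nor IFNβ 7 h for Hsbp1l1 and Bcar1, and Slfn4 was so on both arrays under the scanner files' naming, so these signs are no measured direction. The cause was not tested.

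The additive fit called 0 genes, against 1166 over all arrays, 251 with the array median, 8 with normexp, 1470 over genes detected on all 4 arrays, 13 with a trended prior, and 0 with the scanner files' naming, quantile normalization, no filter or the mean of probes. Leaving out any array of slide 1 leaves the 4-array fit no residual degree of freedom. The fit over all arrays, with leave-one-out chosen after seeing the data, called 66 genes when TCR 1 h was left out, 295 for IFNβ 2 h, 187 for the primed array with TCR 1 h, 298 for IFNβ 7 h, 744 for TCR 6 h, 745 for the primed array with TCR 6 h, and 1163 and 1101 for untreated replicates 1 and 2. No paired analysis was possible because the labels pair no replicates across conditions. Signals at or near the floor of 15 give bounds only.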
